A study of Rattus norvegicus with 48 samples.

Results

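Cyp1a1 (ENSRNOG00000019500) and Cyp1a2 (ENSRNOG00000016173) encode the paired cytochrome P450 enzymes of the CYP1A subfamily, and both genes were followed in rat liver across diet and time. They were picked by identifier, as 2 of the 32662 genes listed in the deposited tables and not by a threshold on their values. Earlier results of these data were known when the choice was made. RNA of 48 livers was sequenced, from 8 male Wistar rats (RjHan:WI) in each of 6 groups. Feeding began at an age of 6 weeks and lasted 4, 8 or 12 weeks. The CDAA diet was an L-amino acid-defined diet deficient in choline with 1% cholesterol added, which provided 31% of its energy as fat, 58% as carbohydrate and 11% as protein and held 0.17% methionine. The CSAA control diet was its choline-supplemented counterpart with 16% of energy as fat, 72% as carbohydrate, 12% as protein and 0.4% methionine, so that choline, cholesterol, fat and methionine differ together and cannot be told apart. The rats were housed in pairs, and the cage of each rat was not used here.

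CYP1A enzymes oxidise planar aromatic compounds, arylamines and caffeine. Their genes are textbook targets of the aryl hydrocarbon receptor (AhR), a ligand-activated transcription factor that pairs with ARNT and binds DNA at a core of the letters GCGTG. Cyp1a1 is nearly silent in uninduced liver and rises steeply after exposure to AhR ligands, whereas Cyp1a2 is made constitutively by hepatocytes, most strongly around the central vein. In bulk liver RNA, fewer hepatocytes and less RNA per hepatocyte cannot be told apart, and this holds for every level below.

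In the RefSeq gene table of the rat assembly GRCr8 the genes lie next to each other with 0 genes between them, flanked by Csk and Edc3. In mammals they are transcribed away from each other and share AhR binding sites in the region between them, most of which lies outside the stretch printed here. The promoter of Cyp1a2 is shown as the part of that region closest to its start site. The 250 bases before its RefSeq start site, at chr8:66978150-66978399 on the minus strand of GRCr8, are printed 5′ to 3′. Capitals mark a match to the TATA box letters TATAAA, whose function was not tested.
Cyp1a2: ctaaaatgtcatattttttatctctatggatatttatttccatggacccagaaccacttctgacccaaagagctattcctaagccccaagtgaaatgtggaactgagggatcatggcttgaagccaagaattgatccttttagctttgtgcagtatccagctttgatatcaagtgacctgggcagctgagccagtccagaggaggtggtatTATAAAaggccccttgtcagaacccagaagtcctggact
The window searched on both strands ran from 250 bases before to 50 bases after the start, the same for every gene. TATAAA occurred 1 time, starting at position -39 from the start site, and 14.2% of 33469 RefSeq promoters held these letters. The core GCGTG was found 0 times in this window, against 29.7% of promoters with at least 1 match, and the letters CCAAT were also found 0 times, against 37.5%. A match or its absence describes this window alone.

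Reads counted on genes ranged from 13619274 to 22284359 per animal (median 18614479). Animals 303 (CDAA, week 4), 504 (CSAA, week 8), 908 (CSAA, week 12) and 1102 (CDAA, week 12) stood apart from their groups on the first principal component of all genes, so the results below were also computed with the other 44 animals. The TMM factors, which correct for the make-up of a library, averaged from 0.777 to 0.848 in the CSAA groups and from 1.07 to 1.37 in the CDAA groups, and the scaling therefore bears on every comparison of the diets. Hepatocyte and other cell type markers were not matched to identifiers here, so the labelled tissue was not checked against them.

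The level of Cyp1a2 exceeded that of Cyp1a1 in every liver when both were expressed per length, as RPKM (read counts divided by gene length and library size). Cyp1a2 RPKM was 502-fold that of Cyp1a1 in the median animal, with a range from 58.6-fold in animal 1101 (CDAA, week 12) to 10752-fold in animal 503 (CSAA, week 8). The highest of these ratios rests on a single Cyp1a1 read in animal 503, a count with an exact 95% Poisson interval of 0.0253 to 5.57 reads that covers counting error only. Cyp1a1 had between 1 and 121 reads per animal, and Cyp1a2 between 1014 and 13467. Counting error is thus a large part of a low Cyp1a1 value and a small part of any Cyp1a2 value.

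Cyp1a1, the inducible member, was low in all groups, and its median level was higher on CDAA than on CSAA at each week, in RPKM and in CPM with TMM factors. At week 4 its RPKM had a lowest, median and highest value of 0.019, 0.117 and 0.23 on CSAA. On CDAA at week 4 these values were 0.19, 0.249 and 1.096. All 8 CDAA livers lay above the CSAA median and 6 of them above every CSAA liver, but the ranges overlapped. In CPM with TMM factors, the scale of the test below, all 8 were again above the CSAA median and 3 above every CSAA liver.

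At week 8 the lowest, median and highest Cyp1a1 RPKM was 0.018, 0.17 and 0.756 on CSAA. On CDAA it was 0.17, 0.468 and 1.745. In RPKM all 8 CDAA livers exceeded the CSAA median and 2 exceeded all CSAA livers, whereas in CPM with TMM factors it was 5 and 1 of 8. At week 12 the values were 0.136, 0.42 and 0.976 on CSAA. On CDAA they were 0.197, 1.124 and 2.44. In RPKM 7 of 8 CDAA livers were above the CSAA median and 5 above all CSAA livers, whereas in CPM with TMM factors it was 6 and 1 of 8. Animal 1103 had the lowest level of this CDAA group on either scale, with 11 reads.

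Cyp1a2, the constitutive member, had overlapping ranges on both diets at each week, with a lower median on CDAA in CPM with TMM factors. At weeks 4, 8 and 12 these medians were 218, 245 and 240 CPM on CDAA and 351, 415 and 333 CPM on CSAA. At week 4 the lowest, median and highest Cyp1a2 RPKM was 40.2, 139.6 and 249.6 on CSAA. On CDAA it was 85.6, 119.8 and 267.4. The CDAA values lay within the CSAA range except for 1 higher liver. On either scale 2 of 8 CDAA livers were above the CSAA median. At week 8 the values were 92.2, 182 and 262 on CSAA. On CDAA they were 85.6, 157 and 327, and the CDAA group extended past the CSAA group at both ends. In RPKM 3 of 8 CDAA livers were above the CSAA median, and in CPM with TMM factors it was 2 of 8.
At week 12 the CSAA livers spanned 31.3, 142 and 337 RPKM (lowest, median, highest). The CDAA livers spanned 141, 171 and 335. The CDAA group lay entirely inside the CSAA range on either scale, with 7 of 8 livers above the CSAA median in RPKM and 1 of 8 in CPM with TMM factors. In RPKM the lowest and the highest level of all 48 livers were both from CSAA rats at week 12.

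**Figure D1:**
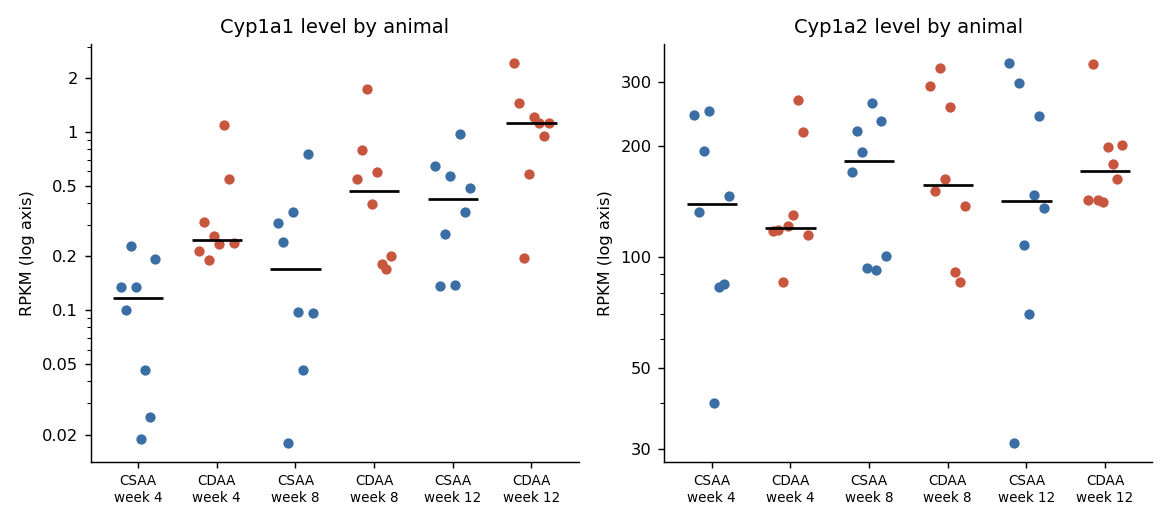
Level of Cyp1a1 (left) and Cyp1a2 (right) in RPKM on log axes, with 1 point per animal (CSAA in blue, CDAA in red) and the group median as a black line. Cyp1a1 stayed at or below 2.44 RPKM and its group medians were higher on CDAA at each week, whereas Cyp1a2 lay between 31.3 and 337 RPKM with overlapping groups.

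The order of neighbouring groups among the 6 group means was not resolved for either gene. By TMM-scaled CPM, mean Cyp1a1 was lowest in CSAA at week 4 (0.362 ± 0.251, SD, n = 8) and highest in CDAA at week 12 (2.184 ± 1.23, SD, n = 8), with CSAA week 8, CDAA week 4, CDAA week 8 and CSAA week 12 in between. No neighbours in this order passed the test (edgeR, lowest adjusted p = 0.291). Across diet and week together, CDAA at week 12 differed from CSAA at week 4 by a log2 fold change of 2.56 (adjusted p = 4.3e-05, edgeR) and from CSAA at week 8 by 1.55 (adjusted p = 0.00432), and CDAA at week 8 differed from CSAA at week 4 by 1.69 (adjusted p = 0.00685). These contrasts mix diet with time, and 35.2%, 33.7% and 32.1% of genes, respectively, were called in them. Cyp1a1 had at least 1 CPM in 5 or more livers, the filter for testing, only in CDAA at weeks 8 and 12. Each of these contrasts thus sets a group that passed the filter against a CSAA group that failed it. Entry to the test depended on a high level in the CDAA group, so these p-values cannot decide the order. They were taken from all 15 pairs of groups, and p was adjusted over genes but not over pairs. By TMM-scaled CPM, mean Cyp1a2 was lowest in CDAA at week 4 (262 ± 92.4 CPM, SD, n = 8) and highest in CSAA at week 12 (430 ± 281 CPM, SD, n = 8). None of its 15 pairs of groups passed (edgeR, lowest adjusted p = 0.0686). By RPKM, which has no composition factor, mean Cyp1a2 was instead lowest at week 4, at 147 RPKM on either diet. It was highest on CDAA at weeks 8 and 12, at 188 RPKM in each.

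The effect of the diet on each gene was tested at each week with edgeR's quasi-likelihood test in a single fit of all animals, and a gene was called when its log2 fold change was 1 or more in size and its p, adjusted by Benjamini-Hochberg, stayed below 0.01. Of the 2 genes, 0 were called at week 4, where 19.9% of the 12756 genes tested were called. At week 8 it was 0 of 2 against 30.2% of genes, and at week 12 it was 0 of 2 against 30.7%. limma-voom and DESeq2 also called 0 of 2 at each week. At an unadjusted p under 0.05, edgeR and DESeq2 gave 1 of 2 and limma-voom 0 of 2 at week 4, and all of these tools 0 of 2 at the later weeks. Of all genes tested, 67.4%, 76.9% and 78.1% had such a p with edgeR at weeks 4, 8 and 12. Cyp1a1 entered this test only through the CDAA groups at weeks 8 and 12, where 5 and 7 of 8 livers had at least 1 CPM, while Cyp1a2 passed this filter in every group.

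For Cyp1a1 the log2 fold change of CDAA against CSAA was 1.34 ± 0.58 (SE) at week 4, a 2.54-fold higher level with a 95% interval from 1.13- to 5.69-fold that missed the threshold on p (adjusted p = 0.0393, edgeR). It was 0.67 ± 0.51 at week 8 (adjusted p = 0.229) and 0.52 ± 0.45 at week 12 (adjusted p = 0.291). Single animals moved these values without making a call. The week 8 value was 0.195 without animal 703 and 1.22 without animal 507 (adjusted p = 0.737 and 0.0370, edgeR). Leaving out each animal in turn gave 0.94 to 1.60 at week 4 and 0.29 to 0.79 at week 12, where the lowest was without animal 1101 and the highest without animal 906. The estimates were positive at all weeks under every scaling tried, and their size depended on it. Scaled to library size alone, the difference was 1.77 at week 4 (adjusted p = 0.00703), 1.27 at week 8 (adjusted p = 0.0243) and 1.33 at week 12 (adjusted p = 0.00911), and the median of all genes then moved to 0.39, 0.65 and 0.73 in the same contrasts.

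For Cyp1a2 the log2 fold change was -0.44 ± 0.35 (SE) at week 4 (adjusted p = 0.277, edgeR), -0.48 ± 0.35 at week 8 (adjusted p = 0.209) and -0.67 ± 0.35 at week 12 (adjusted p = 0.0796). The 95% interval at week 12 reached from 0.386- to 1.03-fold of the CSAA level. Without the animals that stood apart, the week 12 value was -0.84 (adjusted p = 0.0350). The negative direction of Cyp1a2 depended on the scaling, since with library size alone the differences were 0.00097, 0.14 and 0.14 at weeks 4, 8 and 12, and with limma on log2(RPKM + 0.1) they were 0.12, 0.09 and 0.41. Relative to the median gene, the library size values lay lower by a similar amount as with TMM factors, as the plot of contrasts shows.

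**Figure D2:**
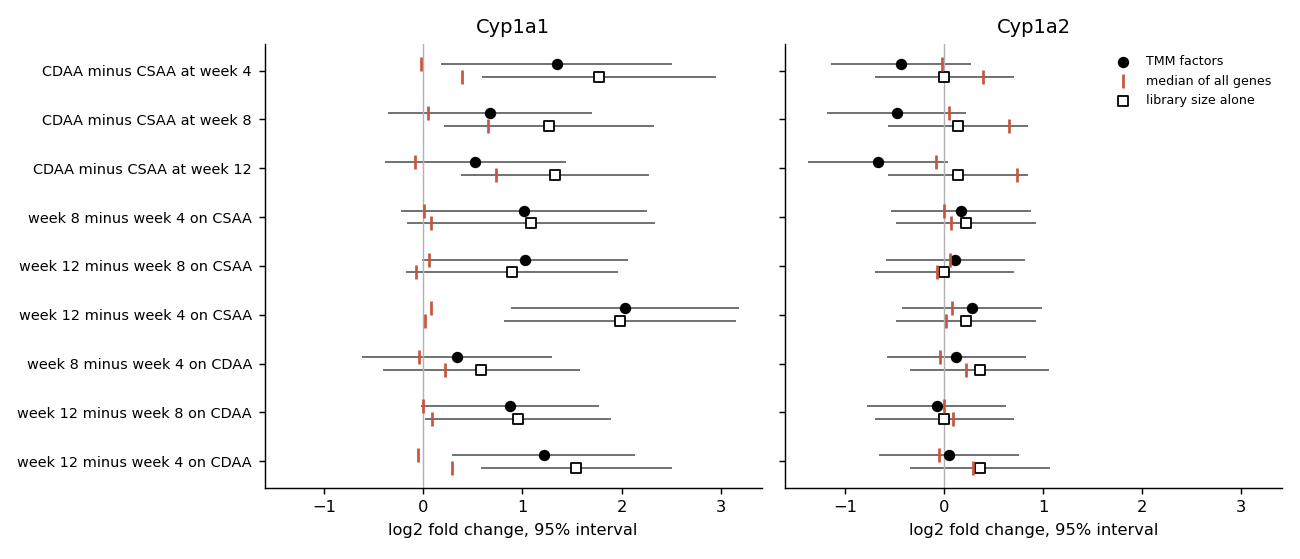
Log2 fold change of Cyp1a1 (left) and Cyp1a2 (right) with its 95% interval in the diet contrasts and the changes between weeks, from edgeR with TMM factors (filled circles) or library size alone (open squares), with the median of all genes as a red tick. The diet effect of Cyp1a2 at week 12 is -0.67 with TMM factors and 0.14 with library size alone, and the median gene moves with it from -0.09 to 0.73.

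Time on the diet was tested in the same fit. Each week had its own rats and feeding began at the same age in all, so time on the diet and age cannot be told apart. Cyp1a1 rose on the control diet between week 4 and week 12, by a log2 fold change of 2.04 ± 0.57 (SE) or 4.10-fold, with a 95% interval from 1.85- to 9.10-fold (adjusted p = 0.00366, edgeR). All 8 livers at week 12 exceeded the week 4 median and 6 exceeded every week 4 liver, and 0.517% of genes tested had a larger absolute change. Neither group passed the filter for Cyp1a1, with 0 of 8 livers at 1 CPM or more at week 4 and 4 of 8 at week 12. The week 4 livers had 1 to 13 reads each, so the size and rank of this change rest on few reads. This rise was the only call for either gene among the diet effects, the changes between weeks on a diet and their interactions. In its contrast 1 of 2 members was called, against 2.68% of genes. DESeq2 made the call and limma-voom, the method of the paper, did not (log2 fold change 2.07, adjusted p = 0.0201). The call was also lost without animal 105 (1.85, adjusted p = 0.0102, edgeR), which had 1 read at week 4, and without animal 906 (1.77, adjusted p = 0.0144), which had 53 reads at week 12. Without the 4 animals that stood apart the log2 fold change was 2.03 (adjusted p = 0.00604, edgeR). Animal 906 is not among these 4, and the paper left a sample named 906_CSAA out of its proteomics as an outlier.

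The smaller steps on CSAA were 1.01 ± 0.62 (SE) from week 4 to week 8 (adjusted p = 0.371, edgeR) and 1.02 ± 0.52 from week 8 to week 12 (adjusted p = 0.112). On CDAA, Cyp1a1 differed by 1.22 ± 0.46 between weeks 4 and 12, which was not called (adjusted p = 0.0202, edgeR), although 7 of 8 livers at week 12 exceeded the week 4 median. This value reached the thresholds without animal 306, the highest liver at week 4 (1.62, adjusted p = 0.00351), and without animal 1103, the lowest at week 12 (1.38, adjusted p = 0.00780). The steps on CDAA were 0.34 ± 0.48 up to week 8 (adjusted p = 0.567) and 0.87 ± 0.45 thereafter (adjusted p = 0.270).

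Cyp1a2 was called in 0 of the 6 contrasts between weeks. Its largest change was 0.28 ± 0.35 (SE) on CSAA between weeks 4 and 12 (adjusted p = 0.555, edgeR), with an interval from 0.745- to 1.98-fold. On CDAA the same contrast gave 0.05 ± 0.35 (adjusted p = 0.916), with an interval from 0.635- to 1.68-fold. Genes called in the other contrasts between weeks made up 0.047% (CSAA) and 5.02% (CDAA) from week 4 to 8, 2.78% and 1.43% from week 8 to 12, and 10.6% on CDAA from week 4 to 12, with 0 of 2 members in each.

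Whether the diet effect itself changed with time was tested as an interaction. The diet effect on Cyp1a1 at week 12 was lower than at week 4 by a log2 difference of -0.82 ± 0.74 (SE), which did not pass (adjusted p = 0.410, edgeR), and that on Cyp1a2 differed by -0.23 ± 0.49 (adjusted p = 0.749). The interactions called 0 of 2 members, against 4.25% of genes from week 4 to 8, 4.01% from week 8 to 12 and 5.04% from week 4 to 12. The change of Cyp1a1 over time was therefore not shown to differ between CSAA and CDAA, although it was called on CSAA alone.

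The level of Cyp1a1 relative to Cyp1a2 within each animal is free of the scaling factor of the library, apart from the constant that is added, which weighs most where Cyp1a1 is lowest. The ratio was computed as the log2 ratio of RPKM with 0.01 added to both, and groups were compared by two-sided exact permutation tests of the means, adjusted over 9 comparisons. At week 4 the lowest, median and highest ratio was -11.23, -10.49 and -9.49 on CSAA. On CDAA it was -9.06, -8.78 and -7.92. The groups did not overlap, as all 8 CDAA livers were above all 8 CSAA livers. The difference of the means was 1.69, a 3.22-fold higher ratio on CDAA, with an exact permutation p of 0.000155, the smallest that 8 against 8 animals can give (adjusted p = 0.00140). Without the animals that stood apart it was likewise 1.69 (adjusted p = 0.00280, exact permutation test). With 0.1 RPKM added in place of 0.01 the difference was 1.00 or 2.00-fold and still called (adjusted p = 0.00699, exact permutation test), but the groups then overlapped, with 4 of 8 CDAA livers above all CSAA livers. In log2 CPM it was 1.45 (adjusted p = 0.00140, exact permutation test), without overlap. The CSAA livers of this week had 1 to 13 Cyp1a1 reads each. How many ratios of other genes separate the diets in this way was not counted, and 19.9% of single genes were called for the diet at week 4.

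At weeks 8 and 12 the ratio was also higher on CDAA in most livers, without passing the threshold. The mean was -8.58 ± 0.67 on CDAA and -9.96 ± 1.59 on CSAA at week 8 (SD, n = 8 each, adjusted p = 0.0627, exact permutation test). At week 12 it was -7.57 ± 0.98 on CDAA and -8.49 ± 0.99 on CSAA (SD, n = 8 each, adjusted p = 0.110, exact permutation test). The CSAA livers at week 8 had the widest spread, from -12.76 in animal 503 to -8.00 in animal 504, which is among the animals that stood apart.

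On CSAA the ratio rose from week 4 to week 12 by 1.89 or 3.71-fold (adjusted p = 0.00280, exact permutation test), with 7 of 8 livers above all week 4 livers. With the larger constant the difference was 1.19 and was no longer called (adjusted p = 0.0350). On CDAA the ratio differed by 1.13 over the same time (adjusted p = 0.0224, exact permutation test), and by 1.39 without animal 1103 (adjusted p = 0.00140). The other changes between weeks had adjusted p-values from 0.0627 to 0.698.

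**Figure D3:**
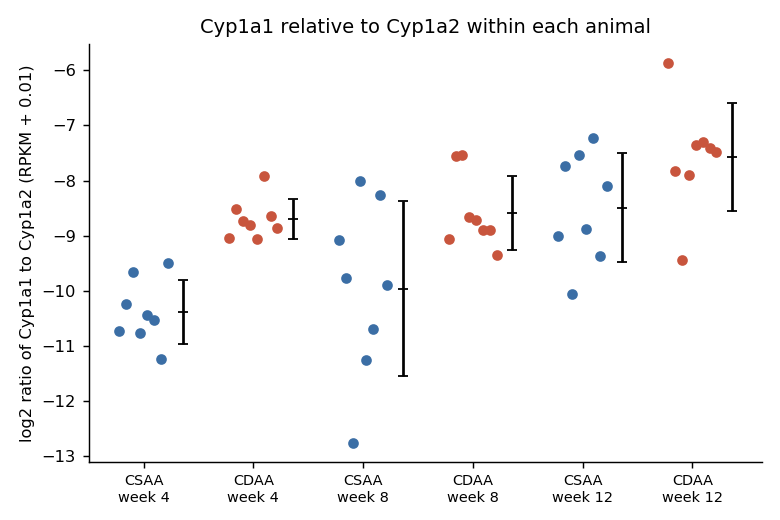
Log2 ratio of Cyp1a1 to Cyp1a2 within each animal (RPKM + 0.01), with 1 point per animal (CSAA in blue, CDAA in red) and the mean with its SD as bars beside each group of 8. The 8 CDAA livers at week 4, from -9.06 to -7.92, lie above all CSAA livers of that week, from -11.23 to -9.49, which holds for 4 of 8 with 0.1 RPKM added.

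Animals of a group that were high in Cyp1a1 tended to be high in Cyp1a2, to a degree that varied between groups. Pearson's r of log2(RPKM + 0.01) was 0.948 on CDAA at week 4, the only one of 6 groups past the threshold (exact permutation over pairings, adjusted p = 0.00967), with a Spearman's rho of 0.786 (exact permutation, adjusted p = 0.0589). It fell to 0.597 without the 2 animals farthest from the median of Cyp1a1, and thus rests on these livers, and its adjusted p was 0.0258 without the animals that stood apart. Group CSAA at week 4 had r = 0.869 and rho = 0.778 (exact permutation, adjusted p = 0.0152 and 0.0589), and CDAA at week 8 had r = 0.836 and rho = 0.833 (exact permutation, adjusted p = 0.0223 and 0.0589).
In these groups r was 0.688 and 0.686 without the 2 farthest animals. It was 0.174 on CSAA at week 8 (rho 0.238, exact permutation, adjusted p = 0.676 and 0.582). At week 12 it was 0.581 on CSAA (rho 0.524, exact permutation, adjusted p = 0.197 and 0.295) and 0.379 on CDAA (rho 0.381, exact permutation, adjusted p = 0.365 and 0.432). Leaving out the 2 farthest animals turned r at week 12 to -0.420 on CSAA and to 0.830 on CDAA. With 8 animals, 2 livers could thus set the sign of r. The genes are related in sequence, and whether reads of the abundant Cyp1a2 were counted on Cyp1a1 was not tested.

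**Figure D4:**
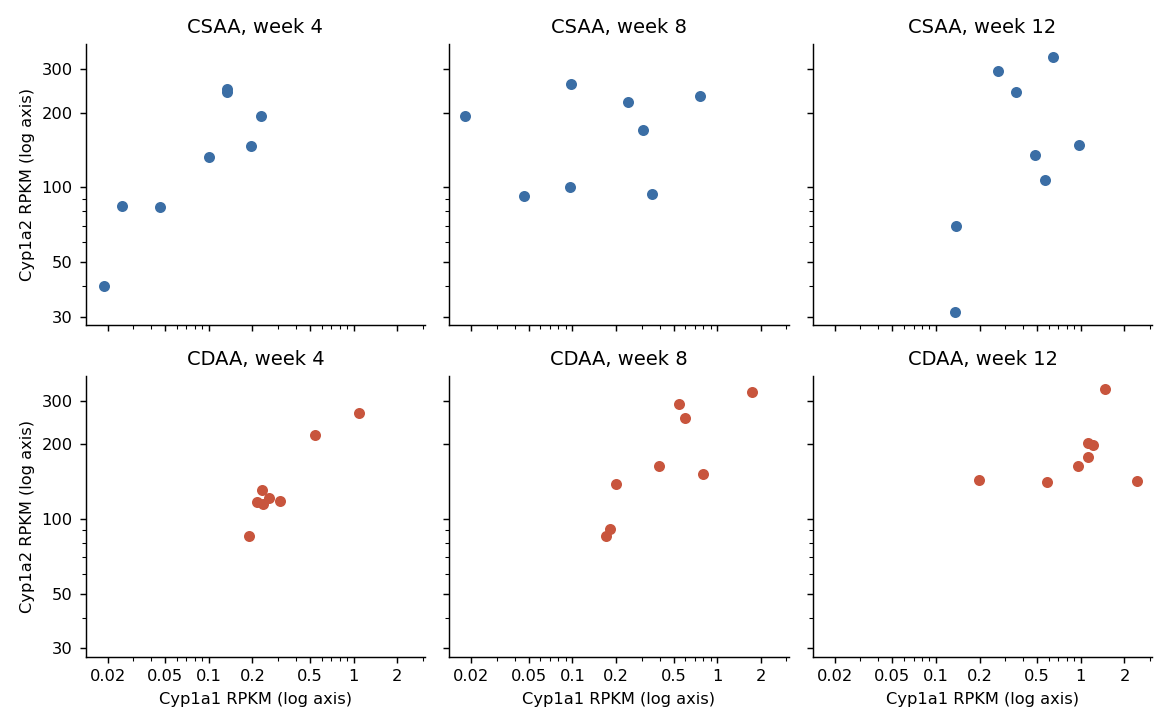
Cyp1a2 against Cyp1a1 in RPKM on log axes, 1 panel per group and 1 point per animal. On CDAA at week 4 the points follow a rising line that is set by the 2 highest livers, and on CSAA at week 8 (r = 0.174) they show no such order.

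Across all 48 livers with the group means removed, Cyp1a2 ranked 2nd of 12755 genes in its correlation with Cyp1a1 (r = 0.555), behind ENSRNOG00000013027 (r = 0.585). From the side of Cyp1a2, Cyp1a1 ranked 8th, and the most alike gene was ENSRNOG00000020342 (r = 0.609). These correlations are a description over log2 CPM values that share library and scaling, and 0 genes reached an r of 0.7 with either member.

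Both genes varied more between rats of a group than most genes of similar level. The SD of log2 CPM pooled over the groups was 0.978 for Cyp1a1, where 44 of 873 genes within 0.5 of its mean log2 CPM varied more and the median SD of these genes was 0.562. For Cyp1a2 it was 0.769, above 98.5% of 274 genes with a median of 0.216, and 4 of these genes varied more. The largest group spread of Cyp1a2 was on CSAA at week 12, where the SD was 1.14 and the highest liver had 10.7-fold the level of the lowest in CPM. Cyp1a2 has at least 1014 reads in every liver, so that counting error is small beside this spread, whereas a part of the Cyp1a1 spread is counting error and its share was not tested.

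**Figure D5:**
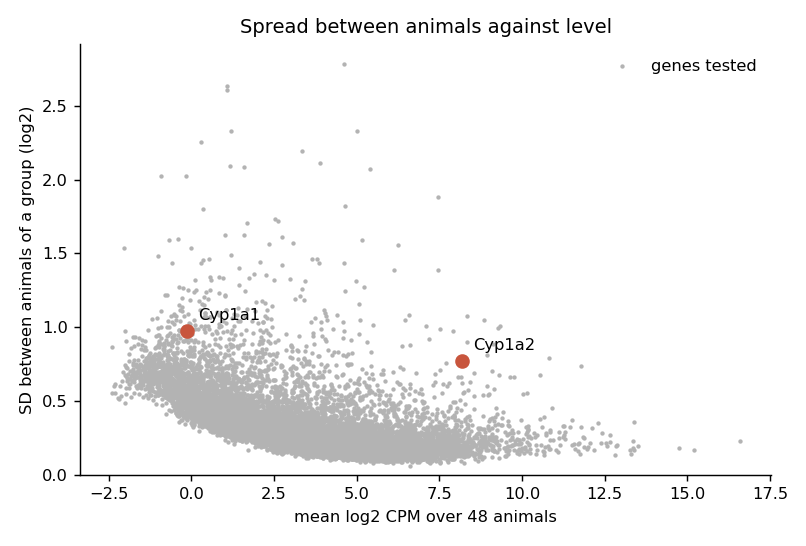
SD of log2 CPM between animals, pooled over the 6 groups, against the mean log2 CPM over 48 animals for each gene tested (grey), with both CYP1A genes in red. Cyp1a2 (SD 0.769) stands above nearly all genes of its level, and Cyp1a1 (SD 0.978) lies in the upper part of a wider cloud.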

How the data were processed

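Liver RNA (TruSeq Stranded mRNA libraries, single-end reads) was aligned by the authors to Rnor_6.0 with STAR and counted per Ensembl gene with featureCounts, and they deposited counts without normalization. The authors also deposited RPKM values with 3 decimals, which the paper calls FPKM. The tables list identifiers without symbols, and both genes were taken by their Ensembl identifiers. The members and lists were chosen with earlier results of these data known.

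The quasi-likelihood test of edgeR 4.0.16 (R 4.3.3) was run on the counts with TMM factors and 1 coefficient for each group, over 12756 genes that had 1 CPM or more in 5 or more animals of some group. Called genes had an adjusted p (Benjamini-Hochberg) below 0.01 and a log2 fold change of 1 or more in size. limma 3.58.1, DESeq2 1.42.0, other scalings and left-out animals were alternatives. Ratios and correlations used exact permutation tests written with numpy 2.4.6, and scipy 1.17.1 gave the ranks for Spearman's rho. Scripts were tested on simulated data. In 168 pairs of libraries of a group, the chi-square per gene was at least 3.28, where sampling noise gives about 1. Reads per animal are given with the results, and Cyp1a1 is limited by its read number. Groups, diets and weeks came from the labels, which name no batch. Lists of 120 genes and ratios to Alb, Glul and Cyp2e1 were not analysed here, since identifiers were not matched to symbols. The named genes are both members and, for each, the gene most like it.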

Additional observations from a re-analysis of the deposited data

Results flagged for a closer look

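Cyp1a2 in animal 1102 (CDAA, week 12) had a log2(RPKM + 0.01) of 8.39 and stood apart from the other 7 rats of its group, which lay between 7.14 and 7.66. The gap to the nearest rat was 0.582 of the range of the group, above the critical value of 0.526 for 8 animals. Of 18 sets of values tested in this way (Cyp1a1, Cyp1a2 and their ratio in 6 groups), chance alone gives about 0.9 such values. The same animal stood apart on the first principal component of all genes. Without the 4 animals that stood apart, which include 1102 and 908 at week 12, the diet effect on Cyp1a2 at week 12 was -0.84 in place of -0.67 and was still not called.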

How the results depend on the processing

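Of the results for Cyp1a1 and Cyp1a2, the diet effects, the changes between weeks and the interactions were recomputed with other tests, scalings and filters and without each animal in turn. With library size alone, Cyp1a1 reached the thresholds for the diet effect at week 4 (1.77) and week 12 (1.33) and for week 12 against week 4 on CDAA (1.54), and with limma on log2(RPKM + 0.1) at week 12 (1.14) and for the same change on CDAA (1.31). The rise of Cyp1a1 on CSAA from week 4 to 12 was not called with limma-voom (2.07), with limma on log2(RPKM + 1) (0.36) or with exact permutation tests of log2 CPM (1.77), an alternative chosen after seeing the data (adjusted p = 0.0336). That permutation p was adjusted over both genes and their contrasts of diet and of week, and not over all genes. Over the other alternatives the adjusted p of this rise ranged from 0.000728 to 0.0616.

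The diet effect on Cyp1a2 turned positive with library size alone (0.00097, 0.14 and 0.14 at weeks 4, 8 and 12), with limma on log2(RPKM + 0.1) (0.12, 0.0929 and 0.41) and on log2(RPKM + 1) (0.12, 0.0926 and 0.41). Its changes between weeks also turned where they were near 0, on CSAA from week 8 to 12 with limma-voom (-0.11), RPKM (-0.22 with either constant) and the permutation test (-0.10). On CDAA from week 8 to 12 they turned with limma-voom (0.0194), library size (0.0015), RPKM (0.10 with either constant) and the permutation test (0.0145), and from week 4 to 12 without the 4 animals (-0.14). The interaction of Cyp1a2 turned from week 4 to 8 with upper quartile factors (0.0552), library size (0.14) and removal of the gene length trend (0.0451), and from week 8 to 12 with limma-voom (0.13), library size (0.00071) and RPKM (0.32 with either constant). From week 4 to 12 it turned with library size (0.14) and RPKM (0.29 with either constant). The interaction of Cyp1a1 turned from week 4 to 8 with log2(RPKM + 1) (0.0158), from week 8 to 12 with library size (0.0614) and RPKM (0.16 with 0.1 and 0.22 with 1 added), and from week 4 to 12 with RPKM (0.0215 and 0.23). The cause was not tested in these cases.

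The ratio of Cyp1a1 to Cyp1a2 at week 4 differed between the diets by 1.00 with 0.1 RPKM added and by 1.69 with 0.01, and was called with either. On CSAA from week 4 to 12 its change was 1.19 and not called with 0.1 RPKM added. The correlation on CDAA at week 4 was not called on log2 CPM (r = 0.950) or without the animals that stood apart (r = 0.955).

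Leaving out each animal in turn gave 1.77 to 2.29 for Cyp1a1 on CSAA from week 4 to 12 and 0.98 to 1.62 on CDAA, and -0.13 to 0.74 on CDAA from week 4 to 8. For Cyp1a2 it gave -0.10 to 0.27 on CSAA from week 8 to 12, and on CDAA -0.0241 to 0.28 from week 4 to 8, -0.27 to 0.0715 from week 8 to 12 and -0.15 to 0.20 from week 4 to 12. The interactions ranged from -0.20 to 0.11 (Cyp1a2, week 4 to 8), from -0.70 to 0.33 (Cyp1a1, week 8 to 12) and from -0.39 to 0.0255 (Cyp1a2, week 8 to 12). The ratio on CDAA ranged from -0.0347 to 0.23 (week 4 to 8), 0.77 to 1.28 (week 8 to 12) and 0.88 to 1.39 (week 4 to 12).

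Numbers of called genes moved by over 1.5 times with limma on log2(RPKM + 1) to 1405 from 2543 (diet, week 4), 2511 from 3856 (diet, week 8), 147 from 342 (CSAA, week 4 to 12), 195 from 640 (CDAA, week 4 to 8), 71 from 183 (CDAA, week 8 to 12), 600 from 1347 (CDAA, week 4 to 12) and 215 from 542 (interaction, week 4 to 8). With the length trend removed they moved to 218 from 355 (CSAA, week 8 to 12), 413 (CDAA, week 4 to 8) and 246 (interaction, week 4 to 8), and without the 4 animals to 329 (CDAA, week 8 to 12) and 770 from 511 (interaction, week 8 to 12). With log2(RPKM + 0.1) they moved to 767 (interaction, week 8 to 12) and 1356 from 643 (interaction, week 4 to 12), where library size gave 1014. On CSAA from week 4 to 8 the 6 calls became 60 with DESeq2, 13 with library size, 14 with log2(RPKM + 0.1), 19 without the 4 animals or the length trend, and 4 to 20 without each animal in turn.

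Cyp1a1 could not be fitted at week 4 in the animals of that week alone, where it does not pass the filter. The ratios to Alb, Glul and Cyp2e1 were not run. The SD of Cyp1a1 on CSAA at week 4 was 0.891 in log2 CPM and 0.555 in log2(RPKM + 0.1). The low number of Cyp1a1 reads limits this group most, with 1 to 13 reads per animal.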
